A study of Rattus norvegicus with 16 samples.

Results

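The TGF-beta and BMP signalling genes followed here were 10 rat genes. They are the ligands *Tgfb1*, *Tgfb2*, *Tgfb3* and *Bmp4*, the receptor *Tgfbr1*, the Smad genes *Smad3* and *Smad7*, and the target genes *Id1*, *Id2* and *Id3*. The genes were chosen with earlier results of these data known. Their probes were taken by name: every array probe whose RefSeq accession resolved to one of these symbols, whatever its value. This gave 16 probes of the 41012 tested on the array. Of those 41012 probes, 10768 carried an accession that resolved to a gene, for 8899 named genes in all, and 30244 stayed without a name and could not be searched for further probes of these genes.

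The arrays compared PCCl3 cells, a differentiated line of rat thyroid follicular cells, before and after silencing of *Pax8*, a transcription factor of the paired-box family that maintains the thyroid follicular state. There were 3 conditions: cells without siRNA (wt), cells that received a control siRNA of scrambled sequence (siScramble), and cells that received siRNA against *Pax8* (si*Pax8*). The siRNAs were used at 10 ng/ml with a lipid transfection reagent, and the methods give 48 hours between transfection and RNA collection. Each two-colour array carried si*Pax8* RNA in one dye and wt or siScramble RNA in the other, in 4 replicates per comparison with the dyes swapped, which made 16 arrays. All conditions were grown in thyrotropin-containing medium, and the labels describe wt as wild type while the methods describe it as treated with the transfection reagent alone and a supplement as not transfected. The model is 1 cell line with transient silencing, and fewer cells expressing a gene and less RNA per cell cannot be told apart in bulk RNA. The labels call the replicates biological, but nothing says whether they came from separate cultures, so the p-values measure only the spread between these samples.

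Ligands of the TGF-beta family are secreted as dimers and bind pairs of type I and type II serine/threonine kinase receptors. The activated type I receptor phosphorylates receptor Smads, which join the common Smad and enter the nucleus. TGF-beta isoforms signal mainly through the receptor encoded by *Tgfbr1* and through Smad2 and Smad3, whereas BMP ligands signal through other type I receptors and other Smads and induce the *Id* genes, whose products hold basic helix-loop-helix factors off DNA. *Smad7* encodes an inhibitory Smad that closes a feedback loop. In thyroid follicular cells TGF-beta is known as a brake on proliferation and on thyroid-specific genes.

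All log2 ratios below are si*Pax8* over the control, so that a negative value means less signal in si*Pax8* cells, and each replicate is the mean of its dye-swapped arrays. The direction was read from the dye that the labels assign to each RNA. At an adjusted p under 0.005, 2886 probes were higher and 3374 lower against wt. The study's text instead gives the larger count there to probes that rose after silencing. Against siScramble 499 were higher and 368 lower, where the text gives the larger count to lower probes. Counts alone do not give the direction of single probes. For the single genes *Dio1* and *Cdh16* the study's wording has the direction found here. Against wt, the 2 probes of *Dio1*, a deiodinase gene, gave −0.85 and −0.75, and those of *Cdh16*, a cadherin gene, −0.90 and −0.29. Between 52% and 60.8% of spots were well above background per array and channel. In the next counts a probe is well above background if either channel was so on at least 8 of the 16 arrays. All 10 probes for 8 thyroid follicular markers met this rule, as did 2 of 6 for C cell markers. The counts were 2 of 7 for fibroblast and mesenchymal markers, 2 of 2 for leukocyte markers and 0 of 2 for endothelial markers. The rule admits dim probes. Per channel and comparison, the leukocyte marker *Csf1r* was well above background on 2 to 4 of 8 arrays. The C cell marker probe *Chga* A_44_P300328 was so on 1 to 5 of 8. *Pax8* itself measured 67.6% of wt, with replicates of −0.84, −0.57, −0.59 and −0.26 (limma adjusted p = 0.000472). Against siScramble its replicates were −0.58, −0.29, −0.12 and −0.01, a mean of −0.25 ± 0.25 (SD, n = 4; limma adjusted p = 0.143), below 0 in all 4 replicates but not past the test. Without replicate 3, the value against wt stayed at −0.56 and its adjusted p became 0.00562, just outside the threshold of 0.005 used throughout.

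Against wt, *Tgfb2*, *Tgfb3*, *Tgfbr1* and *Id2* were higher in si*Pax8* cells and none of the 10 genes was lower. Against siScramble, only *Tgfb3* was higher and none was lower. In probes, 5 of 16 (31.2%) were higher against wt, beside 7.04% of all probes called higher and 15.3% called in either direction. Against siScramble 1 of 16 (6.25%) was higher, beside 1.22% higher and 2.11% in either direction. The median log2 ratio over the 16 probes was 0.05 against wt and 0.06 against siScramble. At an unadjusted p under 0.05, 6 of 16 probes were higher and 3 lower against wt (beside 15.5% and 18.3% of all probes, 33.8% together), and 4 were higher and 0 lower against siScramble (beside 8.57% and 11.9%, 20.5% together). These shares of a few probes are given as a description. The si*Pax8* samples are common to both comparisons, where their channel levels deviated together by replicate number (correlations of 0.53 to 0.74), so the comparisons are not independent and their values are set side by side without a count of agreement. The number of members called against wt fell to 2 without replicate 3 and to 2 without replicate 4, and the number against siScramble fell to 0 without replicate 2.

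**Figure D1:**
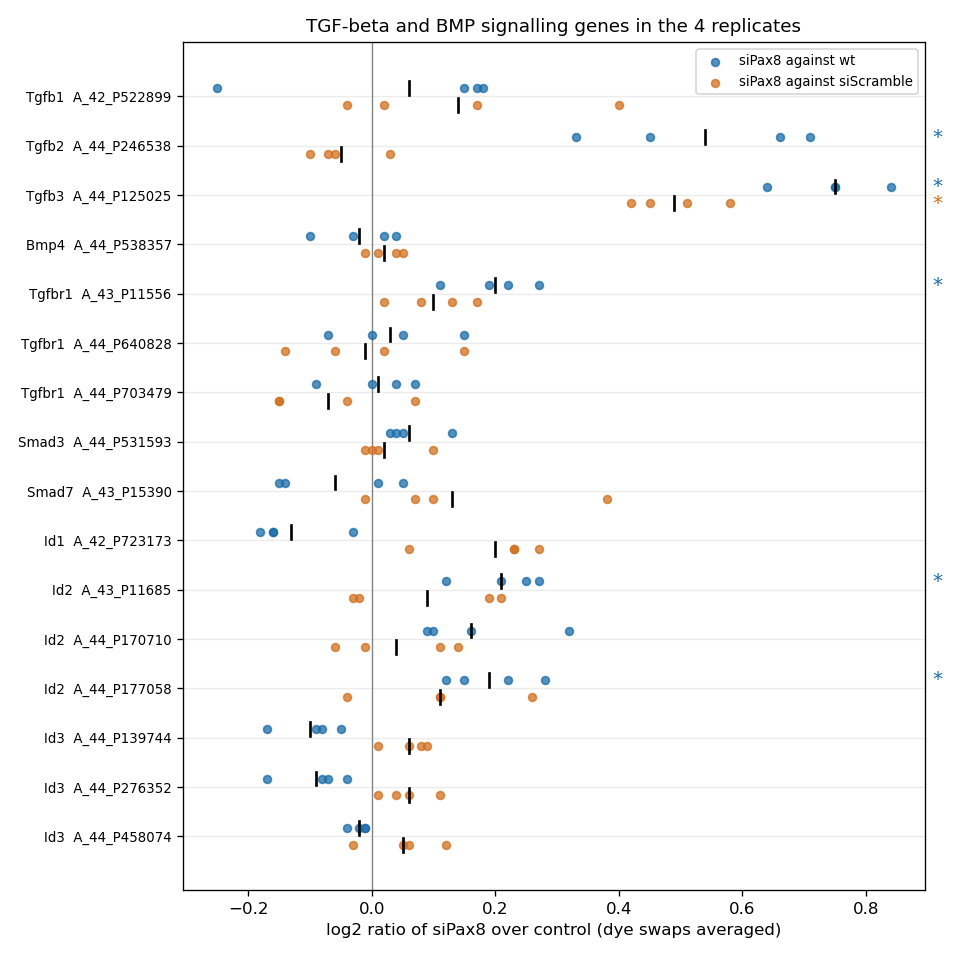
Log2 ratio of si*Pax8* over wt (blue) and over siScramble (orange) for the 16 probes of the 10 genes, with gene and probe name on the vertical axis. Points are the 4 replicates, black bars their means, and a star at the right edge marks an adjusted p under 0.005. *Tgfb3* lies clear of 0 in both comparisons, *Tgfb2* in the wt comparison alone, and most other probes lie within 0.3 of 0.

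*Tgfb3*, which encodes a ligand known for its part in palate and wound epithelium, had the largest ratio of the 10 genes in both comparisons. Its 4 replicates gave log2 ratios of 0.75, 0.84, 0.64 and 0.75 against wt and 0.45, 0.51, 0.42 and 0.58 against siScramble. Every replicate was above 0, and the lowest ratio against wt was above the highest against siScramble. The means were 0.75 ± 0.08 (SD, n = 4), or 1.68-fold, against wt (limma adjusted p = 1.44e-06) and 0.49 ± 0.07 (SD, n = 4), or 1.41-fold, against siScramble (limma adjusted p = 0.000402). The 95% intervals were 0.66 to 0.83 and 0.41 to 0.57. On the normalized log2 intensity scale *Tgfb3* stood at 10.96 ± 0.08 in wt, 11.19 ± 0.04 in siScramble and 11.70 ± 0.05 in the si*Pax8* samples hybridized with wt. The levels therefore ran in the order wt, siScramble, si*Pax8*, and no 2 of the 3 conditions overlapped in any replicate. By dye, the means against wt were 0.80 with si*Pax8* in Cy5 and 0.70 with it in Cy3, and by slide, which carried arrays of both comparisons, they ran from 0.69 to 0.81. The wt call was kept under all 16 alternatives that were run. The siScramble call was lost in 3 of 16, among them the fit without replicate 2 (0.49, limma adjusted p = 0.00686) and the arrays with si*Pax8* in Cy5 only (0.54, limma adjusted p = 0.00522).

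*Tgfb2* encodes another isoform, which binds the type II receptor poorly unless the co-receptor betaglycan is present. Against wt its replicates were 0.33, 0.45, 0.66 and 0.71. Against siScramble they were −0.07, 0.03, −0.06 and −0.10. All ratios against wt lay above all ratios against siScramble, which scattered around 0. The means were 0.54 ± 0.18 (SD, n = 4), or 1.45-fold, against wt (limma adjusted p = 0.00016) and −0.05 ± 0.06 (SD, n = 4) against siScramble (limma adjusted p = 0.475, 95% interval −0.12 to 0.02). The normalized log2 intensity was 8.42 ± 0.11 in wt, with replicates from 8.29 to 8.56. It was 9.02 ± 0.09 in siScramble, with replicates from 8.93 to 9.13, and 8.95 ± 0.10 in si*Pax8* hybridized with wt. The siScramble and si*Pax8* samples thus overlapped, and both stood above every wt sample. The wt call was kept in 15 of 16 alternatives and lost with the processed signals of the scanner software, where the ratio was 0.69 and the limma adjusted p 0.0167.

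The other ligands did not pass the test in either comparison. *Tgfb1* encodes the isoform most widely expressed in adult tissue, and its probe was printed in 10 spots per array. Its replicates were −0.25, 0.15, 0.17 and 0.18 against wt, so that 3 of 4 lay close together and replicate 1 lay apart on the other side of 0. Their mean was 0.06 ± 0.21 (SD, n = 4; limma adjusted p = 0.625), and without replicate 1 the value was 0.17 with an adjusted p of 0.00283. Against siScramble the replicates were −0.04, 0.17, 0.02 and 0.40, with a mean of 0.14 ± 0.19 (SD, n = 4; limma adjusted p = 0.334). *Bmp4*, a BMP ligand, was not well above background in any sample of any condition, so no fold is given for it.

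**Figure D2:**
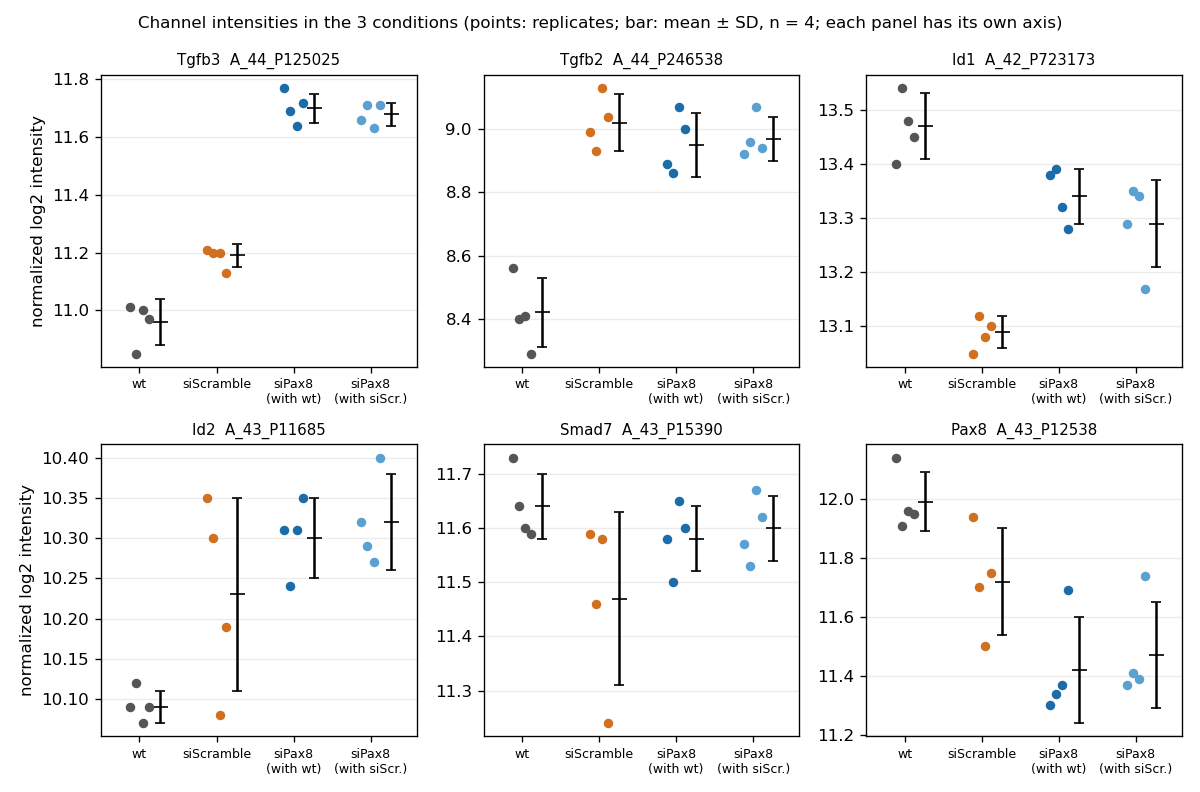
Normalized log2 intensity of 5 member probes and of *Pax8* in wt, siScramble and the si*Pax8* samples of each comparison. Points are replicates and the bar beside them is the mean ± SD (n = 4); each panel has its own vertical axis that does not start at 0, and panels are not comparable in height. *Tgfb3* rises from wt over siScramble to si*Pax8*, *Tgfb2* is as high in siScramble as in si*Pax8*, and *Id1* is lowest in siScramble.

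*Tgfbr1*, which encodes the type I receptor for TGF-beta, was measured by 3 probes that disagreed. The probe A_43_P11556 gave 0.27, 0.11, 0.22 and 0.19 against wt, above 0 in every replicate, with a mean of 0.20 ± 0.07 (SD, n = 4), or 1.15-fold (limma adjusted p = 0.00228). Against siScramble it gave 0.02, 0.08, 0.13 and 0.17, with a mean of 0.10 ± 0.06 (SD, n = 4; limma adjusted p = 0.111). The other two probes averaged 0.03 ± 0.09 and 0.01 ± 0.07 against wt (limma adjusted p = 0.695 and 0.942), and −0.01 ± 0.12 and −0.07 ± 0.11 against siScramble. They straddled 0, so the rise of *Tgfbr1* rests on 1 of its 3 probes. That call was lost when replicate 3 (0.19, limma adjusted p = 0.019) or replicate 4 (0.20, limma adjusted p = 0.013) was left out, with si*Pax8* in Cy3 only (0.16, limma adjusted p = 0.0591), and with the scanner software's processed signals, where the ratio was 0.53 (limma adjusted p = 0.031).

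Promoters of all 10 genes were found in RefSeq (build GRCr8, 250 bases before to 50 after the annotated start). They were searched on both strands for short motifs that carry TGF-beta, BMP, thyroid or cAMP signals to DNA, and for the general TATA box core. The GC-rich Smad motif GGCGCC occurred in 3 of 10, those of *Tgfbr1*, *Smad3* and *Smad7*, beside 11% of all 33469 promoters. The palindromic Smad motif GTCTAGAC, the cAMP response element TGACGTCA and the motif AAGCGTGAC bound by Pax8 and its relatives occurred in 0 of the 10, beside 0.197%, 1.83% and 0.0568% of all promoters. The core TATAAA occurred in 1 of 10, that of *Id1*, beside 14.2% of all. The windows of *Tgfbr1* and *Id1* are shown because they are the windows of members with a call in a test. The call of *Tgfbr1* was against wt, and that of *Id1* was in the difference between the comparisons alone. That of *Tgfbr1* is chr5:66449148-66449177, plus strand, and its motif starts 242 bases before the start. That of *Id1* is chr3:161671493-161671522, plus strand, and its motif starts 59 bases before the start. Capitals mark the motif.
Tgfbr1: ggagtataGGCGCCcagcggtgagggggcg
Id1: tgggtccgccctTATAAAaggctggcccca
A match describes these letters alone, and a window without one shows only that the letters are not in it.

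The Smads passed the limma test in neither comparison (0 of 2 probes, and 0 of 2 at an unadjusted p under 0.05). *Smad7*, the inhibitory Smad that TGF-beta itself induces, had replicates of −0.15, −0.14, 0.05 and 0.01 against wt and −0.01, 0.07, 0.10 and 0.38 against siScramble. The replicates lay on both sides of 0 in each comparison, with means of −0.06 ± 0.10 (SD, n = 4; limma adjusted p = 0.408) and 0.13 ± 0.17 (SD, n = 4; limma adjusted p = 0.294). The ratio of this probe differed by dye. Against wt the mean was −0.26 with si*Pax8* in Cy5 (limma adjusted p = 0.00025) and 0.15 with it in Cy3. Against siScramble it was −0.04 in Cy5 and 0.31 in Cy3 (limma adjusted p = 0.000407), so in each comparison 1 of the 2 orientations alone gave a call that the average does not, and the other had the opposite sign (limma adjusted p = 0.0939 and 0.886). *Smad3*, a receptor Smad of the TGF-beta branch, was not well above background in any sample, and no fold is given.

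Of the *Id* genes, only *Id2* rose against wt and none passed the test against siScramble (limma, 0 of 7 probes; 2 of 7 at an unadjusted p under 0.05). *Id2* was measured by 3 probes, all above 0 in all 4 replicates against wt. The probe A_43_P11685 gave 0.21, 0.12, 0.25 and 0.27, a mean of 0.21 ± 0.07 (SD, n = 4), or 1.16-fold (limma adjusted p = 0.00141). The probe A_44_P177058 gave 0.28, 0.22, 0.15 and 0.12, a mean of 0.19 ± 0.07 (SD, n = 4; limma adjusted p = 0.00254). The third, A_44_P170710, averaged 0.16 ± 0.10 (SD, n = 4), outside the threshold (limma adjusted p = 0.0157). It was inside with the arrays of a replicate as a replicate block (limma adjusted p = 0.00336). That fit took the 8 arrays of the comparison singly, and its negative consensus correlation (−0.124) narrowed the error. With a dye term and no block the 8 arrays also passed (limma adjusted p = 0.00225). Against siScramble the 3 probes averaged 0.09 ± 0.13, 0.11 ± 0.12 and 0.04 ± 0.09 (SD over n = 4 replicates; limma adjusted p = 0.386, 0.232 and 0.647), and each had replicates on both sides of 0. Without replicate 3 both calls were lost, at 0.20 for A_43_P11685 and 0.21 for A_44_P177058 (limma adjusted p = 0.0138 and 0.0125). Without replicate 4 both were lost again, at 0.19 and 0.22 (limma adjusted p = 0.0111 and 0.00586). The second was lost also without replicate 2 (0.18, limma adjusted p = 0.0181).

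*Id1* gave ratios on opposite sides of 0 in the 2 comparisons. Against wt its replicates were −0.03, −0.16, −0.16 and −0.18, a mean of −0.13 ± 0.07 (SD, n = 4; limma adjusted p = 0.0213). Against siScramble they were 0.23, 0.23, 0.27 and 0.06, a mean of 0.20 ± 0.09 (SD, n = 4; limma adjusted p = 0.0222). Neither passed the threshold, yet all 4 ratios were negative in the first and all 4 positive in the second. The normalized log2 intensity was 13.47 ± 0.06 in wt, 13.34 ± 0.05 in si*Pax8* hybridized with wt and 13.09 ± 0.03 in siScramble. Every wt sample was above every siScramble sample, and no replicate of si*Pax8* hybridized with wt overlapped with either. Without replicate 1 the value against wt was −0.16 with a limma adjusted p of 0.00316.

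*Id3* was measured by 3 probes, none of which passed the test. Against wt they averaged −0.10 ± 0.05, −0.09 ± 0.06 and −0.02 ± 0.02 (SD over n = 4 replicates; limma adjusted p = 0.0504, 0.0603 and 0.727). Against siScramble they averaged 0.06 ± 0.04, 0.06 ± 0.04 and 0.05 ± 0.06 (SD over n = 4 replicates; limma adjusted p = 0.247, 0.329 and 0.502). The means of all 3 were thus negative against wt and positive against siScramble, as for *Id1*, and smaller.

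The ratio against wt minus the ratio against siScramble was tested for each probe, which amounts to siScramble over wt measured through si*Pax8*. Of the 16 probes, 1 was higher and 1 lower in this difference (12.5%), beside 1.65% of all probes called higher, 1.78% called lower and 3.44% in either direction. At an unadjusted p under 0.05, 2 were higher and 4 lower, beside 11.2% and 10.9% of all probes and 22.1% together. The higher one was *Tgfb2*, with a difference of 0.59 (95% interval 0.42 to 0.75, limma adjusted p = 0.000821). The lower one was *Id1*, with a difference of −0.33 (95% interval −0.45 to −0.21, limma adjusted p = 0.0029). For both genes the choice of control moved the ratio by more than the replicate spread. *Tgfb3* had a difference of 0.25 (95% interval 0.14 to 0.37), which did not pass (limma adjusted p = 0.00929). With replicates paired by number across the comparisons it passed (limma adjusted p = 0.00323), which made 3 member calls. *Pax8* had a difference of −0.32 (limma adjusted p = 0.183, and 0.00171 when paired). The largest of the *Id3* differences was −0.16 (limma adjusted p = 0.0244), and that of *Smad7* was −0.19 (limma adjusted p = 0.194). The *Tgfb2* call was lost when replicate 2, 3 or 4 was left out, at 0.64, 0.54 and 0.51 (limma adjusted p = 0.00658, 0.0146 and 0.00738). That of *Id1* was lost when replicate 2 or 3 was left out, at −0.31 and −0.30 (limma adjusted p = 0.0338 and 0.0392).

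**Figure D3:**
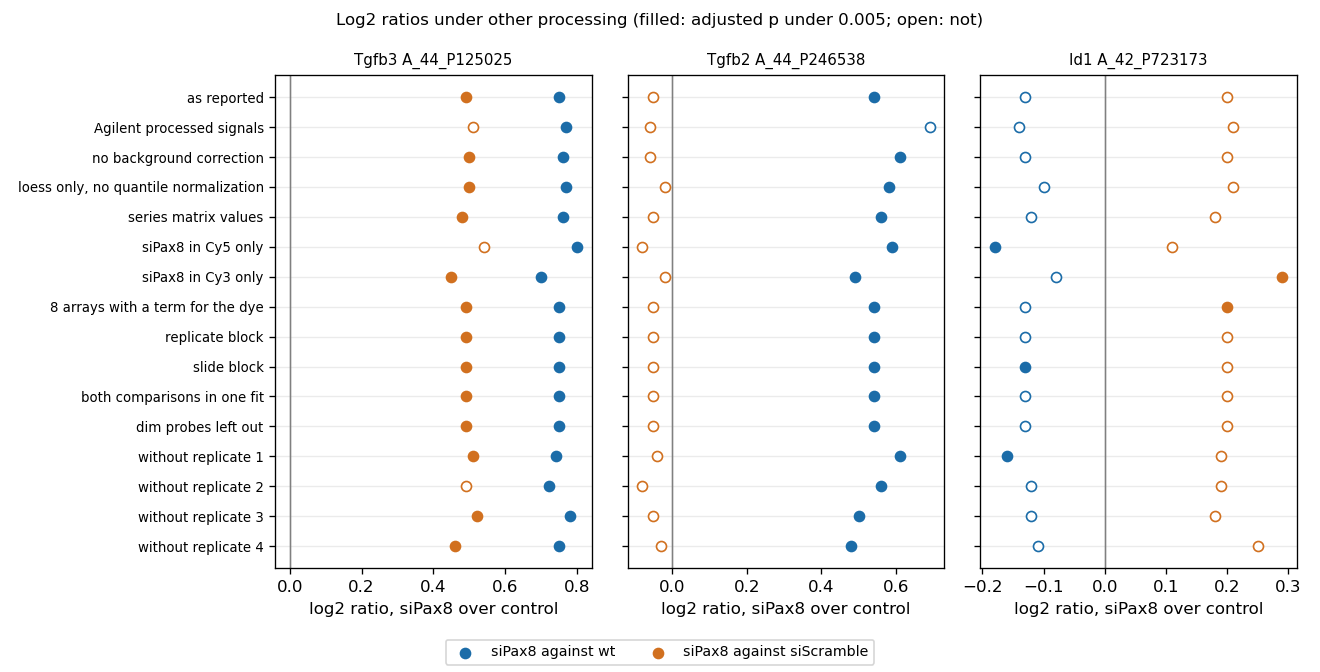
Log2 ratio of si*Pax8* over wt (blue) and over siScramble (orange) for *Tgfb3*, *Tgfb2* and *Id1* as reported and under 15 other ways of processing, one per line. Filled points have an adjusted p under 0.005 and open points do not; each panel has its own horizontal axis. The sign of each value is the same on every line; *Tgfb3* against wt is filled on every line, and the other comparisons have open points on some or all lines.

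Among 105 other genes of the pathway that were listed, 66 were on the array under a resolved name, with 81 probes. Of these probes, 56 were well above background by the rule given for the markers. Against wt 11 of the 81 probes were higher and 5 lower (19.8% called, beside 15.3% of all probes). Against siScramble 6 were higher and 1 lower (8.64%, beside 2.11%). The list was chosen with earlier results of these data known, and the shares over all probes include dim probes. These shares are therefore given as a description. The median log2 ratio of the 81 was 0.00 in both comparisons. By limma, the other receptors and co-receptors had 0 of 14 probes called in either comparison (3 against wt and 2 against siScramble at an unadjusted p under 0.05). The other Smads had 0 of 6 called (2 and 1 at an unadjusted p under 0.05). The calls lay mostly in the textbook target genes, with 7 of 27 probes higher and 3 lower against wt, and 5 higher and 1 lower against siScramble. The count of 7 against siScramble fell whichever replicate was left out, in fits of 3 replicates. It was 2 without replicate 1, 0 without replicate 2, 1 without replicate 3 and 3 without replicate 4. The count of 16 against wt became 10 without replicate 3.

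The target genes that were higher in both comparisons were *Ccn2*, *Cdkn2b*, *Junb* and *Fn1*. *Ccn2*, which encodes connective tissue growth factor, gave 0.46 ± 0.07 against wt and 0.36 ± 0.03 against siScramble (SD, n = 4; limma adjusted p = 1.7e-05 and 0.000559). *Cdkn2b*, which encodes an inhibitor of cyclin D kinases through which TGF-beta halts epithelial cells, gave 0.77 ± 0.13 and 0.45 ± 0.16 (SD, n = 4; limma adjusted p = 5.17e-06 and 0.00442). All 4 replicates of each were above 0 in both comparisons. *Junb*, an AP-1 subunit, gave 0.42 ± 0.04 and 0.25 ± 0.07 (SD, n = 4; limma adjusted p = 1.37e-05 and 0.00498). With si*Pax8* in Cy5 only, its value against siScramble was 0.01, and with the replicate block its limma adjusted p there was 0.0471. *Fn1*, the gene of the matrix protein fibronectin, had 2 probes that disagreed against wt. A_44_P681660 gave 0.24 ± 0.07 and 0.48 ± 0.09 (SD, n = 4; limma adjusted p = 0.000838 and 0.000836), while A_44_P210568 gave 0.04 ± 0.17 and 0.41 ± 0.09 (SD, n = 4; limma adjusted p = 0.744 and 0.00148).

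Each call against siScramble in this group was lost in some fits with 1 replicate left out, which rest on 3 replicates. That of *Ccn2* was lost without replicate 2 (0.36, limma adjusted p = 0.00871) or 3 (0.35, limma adjusted p = 0.00613). For *Cdkn2b* and *Junb* it was lost without any 1 of the 4, with limma adjusted p-values of 0.0074 to 0.034 and 0.0131 to 0.0339. For *Fn1* A_44_P681660 it was lost without replicate 1 (limma adjusted p = 0.00502) or 2 (limma adjusted p = 0.011), and its call against wt without replicate 3 (limma adjusted p = 0.00794). For A_44_P210568 it was lost without replicate 2 (limma adjusted p = 0.0168) or 3 (limma adjusted p = 0.0092). In each of these fits the ratio stayed positive. With all 4 replicates, every siScramble call of the group was lost with the scanner software's processed signals and with si*Pax8* in Cy5 only. Those of *Cdkn2b* and *Junb* were lost also with loess alone (limma adjusted p = 0.00887 and 0.0062). The same held with the ratios normalized by the authors (limma adjusted p = 0.00743 and 0.00727). That of *Junb* was lost with a slide block (limma adjusted p = 0.0172) as well.

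Of the other 8 genes with the largest ratios against wt, 4 were lower. *Gdf15*, a stress-induced member of the ligand family, gave −0.74, −0.68, −0.50 and −0.59 against wt, a mean of −0.63 ± 0.11 (SD, n = 4; limma adjusted p = 8.92e-06), and 0.25, −0.29, −0.09 and −0.12 against siScramble. *Itgb6*, the integrin subunit of a receptor that releases active TGF-beta from its latent complex, gave −0.43 ± 0.01 and −0.15 ± 0.07 (SD, n = 4; limma adjusted p = 7.81e-06 and 0.0322). Both differed between the comparisons, by −0.56 (limma adjusted p = 0.00464) and −0.27 (limma adjusted p = 0.00183). The *Gdf15* difference lost its call without replicate 2, 3 or 4 (limma adjusted p = 0.0121, 0.0267 and 0.0259), and that of *Itgb6* without any 1 replicate (limma adjusted p = 0.00929 to 0.0161). *Cdkn1a*, a cell cycle inhibitor gene, was lower against wt on both of its probes, at −0.44 ± 0.16 and −0.16 ± 0.03 (SD, n = 4; limma adjusted p = 0.000318 and 0.00336), and on neither against siScramble (limma adjusted p = 0.401 and 0.0837). The smaller of these calls was lost with the replicate block (limma adjusted p = 0.0223), with si*Pax8* in Cy5 only (−0.01) and without replicate 2, 3 or 4 (limma adjusted p = 0.0182, 0.0226 and 0.0235). *Id4*, the remaining *Id* gene, was lower on 1 of its 2 probes in each comparison, and not on the same one: A_44_P481915 gave −0.47 ± 0.19 against wt (limma adjusted p = 0.000501; 0.00591 without replicate 3) and A_44_P127869 gave −0.28 ± 0.06 against siScramble (limma adjusted p = 0.00304; 0.00961 to 0.0261 without any 1 replicate).

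The 4 that were higher were *Inha*, *Bmp3*, *Zeb2* and *Myc*. *Inha*, the inhibin alpha subunit gene, gave 0.31 ± 0.07 against wt and 0.15 ± 0.03 against siScramble (SD, n = 4; limma adjusted p = 0.000183 and 0.0139). *Bmp3*, an atypical BMP that opposes the others, gave 0.29 ± 0.05 and 0.30 ± 0.10 (SD, n = 4; limma adjusted p = 0.000123 and 0.00648). For both, the replicate block brought the siScramble value past the threshold (limma adjusted p = 0.00267 and 0.000521). That fit took the 8 arrays of the comparison singly, and its negative consensus correlation (−0.115) narrowed the error. With a dye term and no block the 8 arrays also passed (limma adjusted p = 0.00302 and 0.000236). *Zeb2*, a Smad-interacting repressor of epithelial genes, gave 0.26 ± 0.12 and 0.23 ± 0.22 (SD, n = 4; limma adjusted p = 0.00202 and 0.125). Replicate 1 against siScramble was −0.08. The wt call was lost without replicate 2, 3 or 4 (limma adjusted p = 0.00844, 0.0066 and 0.00578). It was lost also with si*Pax8* in Cy5 only (0.15, limma adjusted p = 0.0653), 1 fit for both comparisons (limma adjusted p = 0.0155) and processed signals (limma adjusted p = 0.0267). *Myc*, which TGF-beta represses in epithelial cells, gave 0.24 ± 0.04 and 0.23 ± 0.07 (SD, n = 4; limma adjusted p = 0.000324 and 0.00762), above 0 in all 4 replicates of each comparison.

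**Figure D4:**
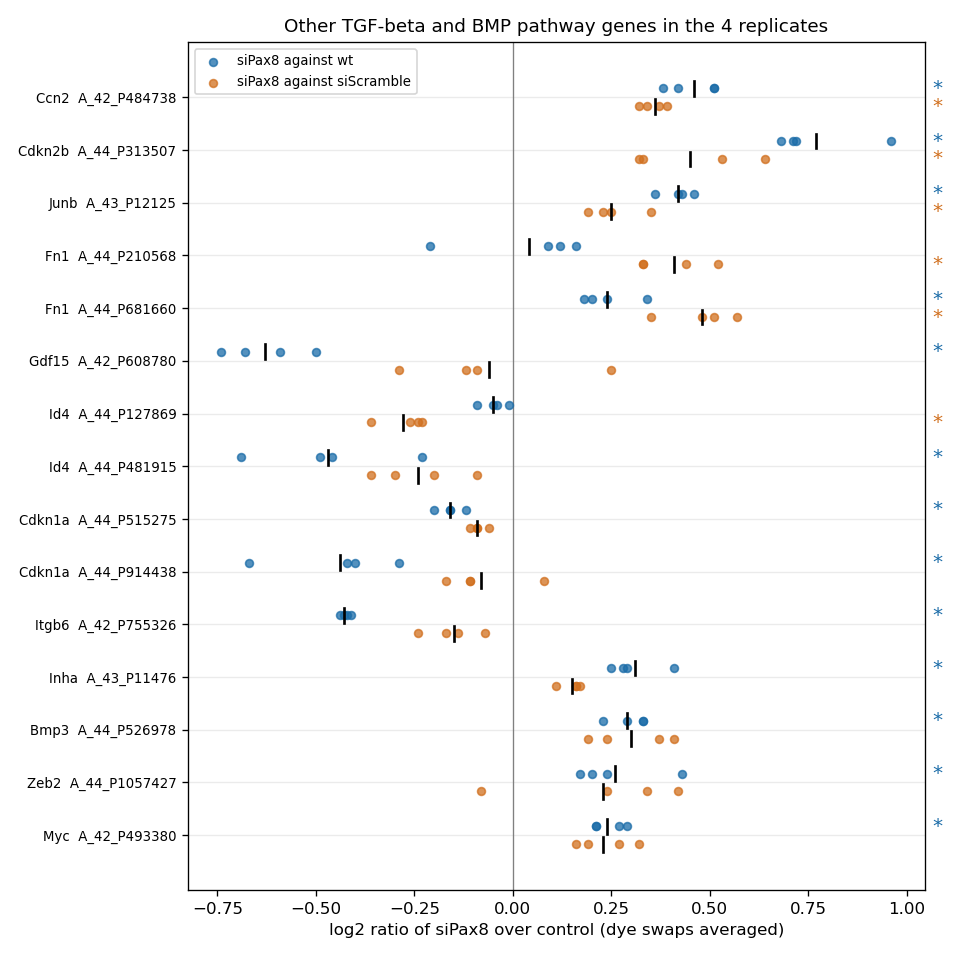
Log2 ratio of si*Pax8* over wt (blue) and over siScramble (orange) for the 12 other pathway genes named in the text, by probe. Points are the 4 replicates, black bars their means, and a star marks an adjusted p under 0.005. *Ccn2*, *Cdkn2b* and *Junb* lie above 0 in every replicate of both comparisons, *Gdf15* lies below 0 in all 4 replicates against wt, and the paired probes of *Fn1* and *Id4* give different ratios against wt.

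Thyroid differentiation genes and a mesenchymal gene moved in the same arrays. Of 10 probes for thyroid follicular markers, 9 were lower against wt (beside 8.23% of all probes called lower) and 2 against siScramble (beside 0.897%). The 9 include the probe of *Pax8* itself, the gene that the siRNA targets, and 2 probes each of *Dio1* and *Cdh16*. *Tg*, the gene of thyroglobulin, gave −0.96 and −0.65 (limma adjusted p = 4.62e-06 and 0.000528). *Slc5a5*, the gene of the sodium/iodide symporter, gave −0.61 and 0.07 (limma adjusted p = 3.09e-06 and 0.364). *Vim*, a mesenchymal filament gene, was higher in both, at 0.56 and 0.25 (limma adjusted p = 0.000106 and 0.00369), as the one call among 7 probes of fibroblast and mesenchymal markers, of which 2 were well above background. *Cd68*, a macrophage marker, was higher against wt at 0.30 (limma adjusted p = 0.000797) and was 0.00 against siScramble (limma adjusted p = 0.986). *Csf1r*, the other leukocyte marker, gave 0.01 and 0.03 (limma adjusted p = 0.938 and 0.717). Its signal was near background. In the wt comparison each channel was well above it on 4 of 8 arrays. In the siScramble comparison the si*Pax8* channel was so on 4 of 8 arrays and the siScramble channel on 2. The part of other cell types in the results above was not tested.

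The genes whose 8 replicate ratios, 4 against each control, ran most like those of *Tgfb3* were *Acsl1*, *Slc25a29* and *Rheb*, with Pearson's r of 0.971, 0.963 and 0.962 among 6246 probes well above background on all arrays. The 8 values share the si*Pax8* samples and fall into 2 groups of 4, so the coefficients largely describe the step between the comparisons and are given as a description.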

How the data were processed

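The deposited scanner files held 2-colour intensity values per spot from Agilent Feature Extraction 10.1.1.1, per the file headers. The deposited series matrix held log2 ratios normalized by the authors with loess and quantile methods in limma; its columns correlated with log2 si*Pax8* over control at −0.999 to −0.992 and therefore held control over si*Pax8*, with column medians of 0.000388 to 0.00739. It served as an alternative. Fold changes and p-values from the study's own comparisons were not used.

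Mean signals were background-corrected with normexp (offset 50), normalized by loess within and quantile between arrays, and averaged over spots of a probe, leaving out control spots and outlier spots. Dye-swapped arrays of a replicate hold the same RNAs and were averaged, giving 4 replicates per comparison. limma 3.58.1 in R 4.3.3 was fitted across 41012 probes, with Benjamini-Hochberg adjustment and the adjusted p threshold of 0.005 in the methods; tests were two-sided. The number of arrays limits the precision. Over the bright probes, deviations of opposite-dye arrays with the same number correlated at 0.12 to 0.58, highest with their own number except for replicate 2 against wt (0.12, and 0.2 with another). Over all probes the consensus correlations of the replicate block were negative (−0.124 and −0.115). Across the comparisons, same-numbered si*Pax8* channels correlated at 0.53 to 0.74, each best with its own number, the control channels at −0.13 to 0.17 and the ratios at 0.04 to 0.57. The numbers therefore pair the si*Pax8* samples, and paired values are given where they change a call. Each of 4 slides carried 4 arrays, 2 of each comparison. Accessions were named through RefSeq. The scripts were tested on simulated data.

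Members and gene lists were chosen with earlier results of these data known. Named were all members, pathway genes past the threshold in both comparisons in one direction, the 8 further pathway genes with the largest ratio against wt among those past it, *Pax8*, *Tg*, *Slc5a5* and the 3 genes most like the member with the largest ratio; *Vim*, *Cd68*, *Csf1r*, *Dio1* and *Cdh16* were named after their values were seen, and 1 thyroid marker is not reported here. The alternatives tried were the scanner software's processed signals, no background correction, loess alone, the series matrix, each dye orientation, a dye term, blocks for replicate and slide, 1 fit for both comparisons, a filter on dim probes, a looser threshold and leaving out each replicate.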

Additional observations from a re-analysis of the deposited data

Results flagged for a closer look

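Among the 10 genes, 4 sets of 4 replicates held 1 replicate far from the others, by Dixon's criterion, which flags about 1 in 20 sets by chance. These were *Tgfb1* against wt (replicate 1 at −0.25), *Id1* against wt (replicate 1 at −0.03) and against siScramble (replicate 4 at 0.06), and *Smad3* against siScramble (a log2 ratio of 0.10 between signals not well above background). Among the other pathway genes they were *Cdkn2b* against wt (0.96) and *Inha* against siScramble (0.11).

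The ratio of si*Pax8* over control differed between the comparisons, by limma's test of the difference, for *Tgfb2* (0.59) and *Id1* (−0.33). Among the other genes it differed for *Gdf15* (−0.56), *Itgb6* (−0.27) and the *Id4* probe A_44_P127869 (0.23). The thyroid gene *Slc5a5* (−0.68) differed as well. The *Id4* call on the difference was lost without any 1 replicate.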

How the results depend on the processing

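The values of *Vim*, *Cd68*, *Dio1* and *Cdh16* were not run through the alternatives. Among the members, the named pathway genes, *Pax8*, *Tg* and *Slc5a5*, no value past the threshold as reported changed sign under any alternative. Some values past it under 1 alternative alone had the opposite sign under another. With 1 dye orientation alone this held for *Smad7* against wt (−0.26 in Cy5, 0.15 in Cy3), and against siScramble (Cy3, then Cy5) for *Smad7* (0.31, −0.04), *Id2* A_44_P177058 (0.24, −0.02), *Gdf15* (−0.36, 0.23), *Cdkn1a* A_44_P515275 (−0.23, 0.05) and *Slc5a5* (0.22, −0.08). *Tgfb1* against wt was 0.17 without replicate 1 and −0.01 in Cy5 only. The counts moved. Of 5 member probes called against wt, 1 was called with the scanner software's processed signals, 8 with si*Pax8* in Cy5 only and 2 in Cy3 only, and 2 to 7 without 1 replicate. Against siScramble, 1 became 0 with processed signals, 0 in Cy5 only, 4 in Cy3 only, 2 with a dye term, 2 at an adjusted p of 0.05, and 0 to 1 without 1 replicate. For the difference, 2 became 0 with processed signals, 1 in either dye alone, 5 at an adjusted p of 0.05, and 0 to 2 without 1 replicate. For the other pathway probes, 16 against wt became 5 with processed signals, 25 at an adjusted p of 0.05 and 10 to 16 without 1 replicate. Against siScramble, 7 became 0 with processed signals, 0 in Cy5 only, 14 in Cy3 only, 12 with a dye term, 11 with a slide block, 13 at an adjusted p of 0.05, and 0 to 3 without 1 replicate. *Pax8* against wt was −0.58 with processed signals (limma adjusted p = 0.0189), −0.47 in Cy3 only (limma adjusted p = 0.0181) and −0.66 to −0.47 without 1 replicate. The cause was not tested; dropping a replicate leaves 3.

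With the replicate block, 6 member probes were called against wt and 1 against siScramble. Pairing replicates by number across the comparisons gave 3 calls of the difference, adding *Tgfb3* (limma adjusted p = 0.00323). It also brought past the threshold the differences of *Pax8* (limma adjusted p = 0.00171), *Cdkn2b* (limma adjusted p = 0.00484), *Fn1* A_44_P210568 (limma adjusted p = 0.00146) and *Cdkn1a* A_44_P914438 (limma adjusted p = 0.000627). Signal over background limits *Bmp4* and *Smad3*.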
